A study of Mus musculus with 4 samples.

Results

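The genes described here are the receptors and Gli transcription factors of the Hedgehog pathway: Ptch1, Hhip, Smo, Gas1, Boc, Cdon, Gli1, Gli2 and Gli3. They were taken by gene name from the table of raw counts, in which they are 9 of 51826 genes. All 9 averaged 10 or more raw counts over the libraries, the filter that left 16734 genes for comparison.

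RNA was sequenced from cultured mouse dermal papilla cells (DPCs), the mesenchymal cells at the base of the hair follicle, and dermal sheath cells (DSCs), which wrap the follicle. Both came from the vibrissa (whisker) follicles of mice aged 5 to 6 weeks. The methods describe the animals as EGFP-transgenic C57BL/6J mice, whereas the labels give the genotype as WT, and what drives the transgene is not given in the sources used here. The groups were low-passage DPCs and low-passage DSCs at passage 3, and high-passage DPCs and high-passage DSCs at passage 9. The labels and methods name no Hedgehog ligand, agonist or inhibitor in the cultures of any group. Each group is 1 library, so no difference below has a replicate check, and passage cannot be told apart from when a culture or library was made. Nothing in the labels says how many mice gave rise to each culture.

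In the Hedgehog pathway, secreted ligands (Sonic, Indian and Desert hedgehog) bind Ptch1, which otherwise holds the membrane protein Smo in check. Released Smo acts at the primary cilium, where Gli2 and Gli3 are turned from repressors into activators, and Gli1, Ptch1 and Hhip are themselves transcribed in response, so that their RNA is commonly read as a gauge of pathway activity. In hair follicles the epithelium makes Sonic hedgehog and the dermal papilla receives it.

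The libraries held 34981284 to 47604059 counts. Levels are given as CPM, counts per 1000000 after scaling by the trimmed mean of M-values (TMM), and differences as log2 fold changes of CPM. Intervals are 95% Clopper-Pearson intervals and cover counting error only. Even counts were in excess among low values (in low-passage DPCs 1339 genes stood at 2 counts, 583 at 3 and 754 at 4), so both mates of a read pair may have been counted and the intervals were also computed on halved counts. A gene was called at a difference of at least 4-fold, the size the study used. In these bulk cultures, fewer cells of a type and less RNA per cell cannot be told apart.

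All 6 general mesenchymal markers were detected in every library, and of 9 keratinocyte markers Krt5, Krt14, Krt15, Krt1 and Cdh1 were at 0 in all 4. Of the other 4, Krt10 had 33 to 61 counts and Trp63 10 to 35, and Krt17 and Epcam had 4 counts in 1 library each. The summed mesenchymal level was 7220 CPM in high-passage DPCs and 18500 to 27000 CPM in the others. With passage in DPCs, Col1a1, Col1a2 and Col3a1 were lower (log2 -2.57, -1.31 and -3.0) and Pdgfra was higher (log2 1.42). Pdgfrb and Vim differed by -0.38 and -0.39. Of 15 papilla markers, 11 or 12 per library had more than 3 counts. However, Wif1 was at 0 in every library and Corin was at 0 in both low-passage libraries. With passage in DPCs, Lef1 went from 508 to 2 counts, Sostdc1 from 61 to 0 and Hey2 from 20 to 0. Others rose, such as Wnt5a from 4711 to 14803 and Rspo3 from 70 to 196. The papilla list summed to 1180 and 1250 CPM in low- and high-passage DPCs and to 826 and 1520 CPM in low- and high-passage DSCs. In the sheath list Abcc9 was at 0 throughout, and the remaining 6 genes were detected in DPCs and DSCs alike. The sheath list summed to 9760 and 3540 CPM in low- and high-passage DPCs and to 7730 and 6950 CPM in low- and high-passage DSCs. In DPCs Myh11 fell from 2882 to 168 counts with passage, and Itga8 rose from 6837 to 34714. Marker levels thus differed between libraries, and their part in the differences below was not tested.

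Of the 7 genes with a RefSeq promoter window (GRCm38.p6, 250 bases before the annotated start and 50 after it), the letters upstream of Gas1 and Ptch1 are shown. Gas1 was the gene that differed most with passage, and Ptch1 is the textbook Gli target whose promoter would be searched first for a Gli site. Capitals mark CCAAT and GGGCGG, the core letters of the CCAAT box and the GC box, on either strand. The windows are chr13:60177536-60177785 (minus strand) and chr13:63565736-63565985 (minus strand).
Gas1: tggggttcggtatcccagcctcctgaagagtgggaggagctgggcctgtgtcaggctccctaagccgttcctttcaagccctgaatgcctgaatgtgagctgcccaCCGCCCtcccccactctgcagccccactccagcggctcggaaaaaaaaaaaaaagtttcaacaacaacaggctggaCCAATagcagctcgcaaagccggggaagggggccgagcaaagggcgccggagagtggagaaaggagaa
Ptch1: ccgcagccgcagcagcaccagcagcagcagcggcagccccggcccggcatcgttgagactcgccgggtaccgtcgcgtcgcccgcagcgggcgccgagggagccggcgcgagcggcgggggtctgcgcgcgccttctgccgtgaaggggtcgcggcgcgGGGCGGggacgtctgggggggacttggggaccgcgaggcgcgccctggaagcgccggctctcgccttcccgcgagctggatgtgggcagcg

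The Gas1 stretch holds a CCAAT that begins 68 bases before the start and a GGGCGG on the opposite strand that begins 144 bases before it. It also lies over an exon of the opposite-strand gene Gm48488. The RefSeq start used for Gas1 lies upstream of the start of the counted gene model, chr13:60177365. The Ptch1 stretch, which belongs to 1 of several annotated starts of that gene, holds a GGGCGG 91 bases before the start and no CCAAT. Over the full 300 bases, GGGCGG occurred in 5 of the 7 windows (Gas1, Gli2, Gli3, Hhip and Ptch1) and in 35.7% of all 32851 windows. CCAAT occurred in 2 of the 7 (Gas1 and Cdon) and in 37.4% of all. The Cdon window (chr9:35451826-35452125) lies inside the gene, over a Cdon exon, and its CCAAT is after the start. The consensus site for Gli proteins, GACCACCCA, was in 0 of the 7 windows and in 0.253% of all, and its shorter core CCACCCA, which the longer motif contains, was in 0 of the 7 and in 9.3% of all. TATAAA was in 0 of the 7 and in 13.6% of all. These are matches of letters in a short window and no binding was measured.

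The 9 genes spanned a wide range of levels. To compare genes with each other, CPM was divided by the length of the longest protein-coding transcript of each gene in kilobases. In low-passage DPCs, Smo stood first at 28.3 CPM per kilobase, followed by Gas1 at 20.1 and Boc at 18.6. In the other 3 libraries Gas1 stood first (291 CPM per kilobase in high-passage DPCs, 62.2 and 113 in low- and high-passage DSCs), followed by Smo (45.5, 34.2 and 39.0) and Boc (20.6, 27.0 and 20.3). Gli3 and Cdon came next, at 4.71 to 10.9 CPM per kilobase, and changed places between libraries on this scale. By deposited FPKM, Gli3 stood above Cdon in all 4 libraries. Per kilobase, Gli3 and Cdon stood at 4.94 and 4.71 in high-passage DSCs and at 7.95 and 6.54 in low-passage DPCs. By FPKM the low-passage DPC values were 10.3 and 6.52. Ptch1 (2.49 to 3.95) lay above Gli2 (1.97 to 2.63) in every library, with the smallest gap in low-passage DSCs, 2.75 against 2.63. Gli1 and Hhip were the lowest, at 0.0449 to 0.637 CPM per kilobase. With 1 library per group, no spread between cultures was available to say which neighbours in this order differ.

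**Figure D1:**
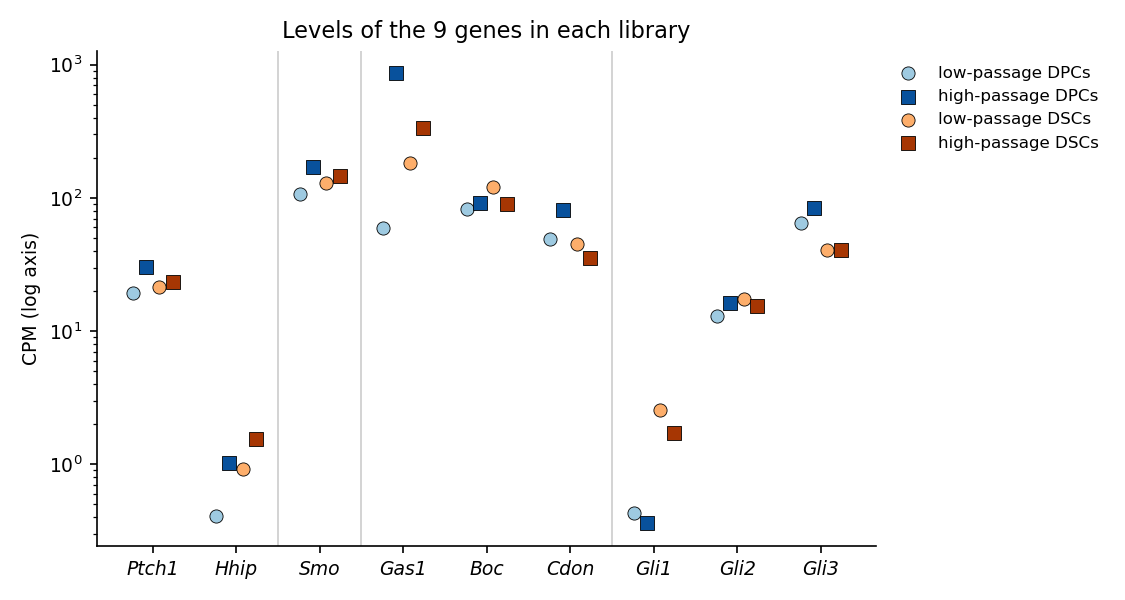
CPM of each gene (log axis) in the 4 libraries, 1 point per library, with circles for passage 3 and squares for passage 9, and vertical lines between inhibitory receptors, Smo, coreceptors and Gli factors. Gas1 covers the widest range, from 59.4 CPM in low-passage DPCs to 862 CPM in high-passage DPCs, and Gli1 and Hhip lie below 3 CPM in every library.

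Ptch1, the receptor that restrains Smo (ENSMUSG00000021466, chr13:63508328-63573598, GRCm38), had 709 and 1094 counts in low- and high-passage DPCs and 807 and 1067 counts in low- and high-passage DSCs, or 19.3, 30.5, 21.3 and 23.4 CPM. The high-passage DPC library was above the other 3, which lay close together. Ptch1 was 1.58-fold higher at high passage in DPCs (log2 0.66, interval 0.52 to 0.80), a change larger than that of 52.7% of the genes tested. In DSCs the difference was 1.10-fold (log2 0.14, interval 0.00 to 0.27), and on halved counts the interval ran from -0.05 to 0.33. The 2 cell types differed little at passage 3 (log2 0.14, DSCs over DPCs), and at passage 9 Ptch1 was 1.30-fold lower in DSCs (log2 -0.38, interval -0.50 to -0.26).

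Hhip, a membrane protein that binds and sequesters Hedgehog ligands (ENSMUSG00000064325, chr8:79965851-80058006), was sparse. It had 15 and 37 counts in low- and high-passage DPCs and 35 and 71 counts in low- and high-passage DSCs, which corresponded to 0.408, 1.03, 0.923 and 1.56 CPM. The lowest library was low-passage DPCs and the highest was high-passage DSCs. With passage Hhip was 2.36-fold higher in DPCs (log2 1.24, interval 0.44 to 2.31) and 1.65-fold higher in DSCs (log2 0.72, interval 0.15 to 1.38), though on halved counts the DSC interval included 0. It was 2.12-fold higher in DSCs than in DPCs at passage 3 (log2 1.09) and 1.49-fold higher at passage 9 (log2 0.57), and on halved counts neither interval excluded 0. The deposited FPKM of Hhip rested on different lengths in different libraries. The length implied by its counts and FPKM was 10700 and 10500 bases in the low-passage libraries but 4230 and 4490 bases in the high-passage libraries, so its FPKM differed more with passage (0.0398 to 0.250 in DPCs, 0.0861 to 0.332 in DSCs) than its counts did.

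Smo, the signal transducer released by ligand binding (ENSMUSG00000001761, chr6:29735503-29761365), had 3938 and 6164 counts in low- and high-passage DPCs and 4898 and 6711 counts in low- and high-passage DSCs (107, 172, 129 and 147 CPM). The order of the libraries was the same as for Ptch1. Smo was 1.60-fold higher at high passage in DPCs (log2 0.68, interval 0.62 to 0.74) and 1.14-fold higher in DSCs (log2 0.19, interval 0.14 to 0.24). In DSCs relative to DPCs it was 1.21-fold higher at passage 3 (log2 0.27) and 1.17-fold lower at passage 9 (log2 -0.22), with both intervals clear of 0. Of all pairs among the 9 genes, Ptch1 and Smo had the most similar profiles, with a Euclidean distance of 0.149 between their centred log2 CPM over the 4 libraries.

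Gas1 is a membrane-anchored coreceptor that helps ligand bind Ptch1, and was first known as a gene expressed in growth-arrested fibroblasts (ENSMUSG00000052957, chr13:60174405-60177365). It rose from 2186 counts in low-passage DPCs to 30926 in high-passage DPCs, and stood at 6979 and 15202 counts in low- and high-passage DSCs, or 59.4, 862, 184 and 334 CPM. Low-passage DPCs had the lowest and high-passage DPCs the highest level, with both DSC libraries between them. The change in DPCs was 14.5-fold (log2 3.86, interval 3.80 to 3.92), the only call of at least 4-fold with passage among the 9 genes in DPCs, where 5.58% of the genes tested were called higher. In DSCs Gas1 was 1.81-fold higher at high passage (log2 0.86, interval 0.82 to 0.90). The cell type with more Gas1 depended on passage: DSCs exceeded DPCs 3.10-fold at passage 3 (log2 1.63), and DPCs exceeded DSCs 2.58-fold at passage 9 (log2 -1.37).

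The summed level of 8 proliferation markers moved the other way with passage. It was 685 CPM in low-passage and 150 CPM in high-passage DPCs, and 576 CPM in low-passage and 226 CPM in high-passage DSCs, with all 8 genes detected in every library. The library with the least of these markers was the library with the most Gas1, and the library with the most was that with the least Gas1, and their part in the Gas1 difference was not tested. Gas1 shares 19.9% of its exonic bases with Gm48488 on the opposite strand in GENCODE M21. Whether the counting used strand is not stated, so RNA of the 2 genes could not be told apart within those shared bases.

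Boc, an immunoglobulin-family coreceptor (ENSMUSG00000022687, chr16:44485049-44558897), had 3051 and 3297 counts in low- and high-passage DPCs and 4558 and 4124 counts in low- and high-passage DSCs (82.9, 91.9, 120 and 90.5 CPM). Low-passage DSCs stood above the other 3 libraries. Boc was 1.11-fold higher at high passage in DPCs (log2 0.15, interval 0.08 to 0.22) and 1.33-fold lower in DSCs (log2 -0.41, interval -0.47 to -0.35). It was 1.45-fold higher in DSCs than in DPCs at passage 3 (log2 0.54), and at passage 9 the interval of the difference ran from -0.09 to 0.04.

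Cdon, the close relative of Boc (ENSMUSG00000038119, chr9:35421128-35507652), had 1807 and 2936 counts in low- and high-passage DPCs and 1700 and 1612 counts in low- and high-passage DSCs (49.1, 81.8, 44.8 and 35.4 CPM). The high-passage DPC library was the highest and the high-passage DSC library the lowest. Cdon was 1.67-fold higher at high passage in DPCs (log2 0.74, interval 0.65 to 0.82) and 1.27-fold lower in DSCs (log2 -0.34, interval -0.44 to -0.24). The DSC to DPC difference was accordingly small at passage 3 (log2 -0.13) and 2.31-fold toward DPCs at passage 9 (log2 -1.21, interval -1.30 to -1.12).

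**Figure D2:**
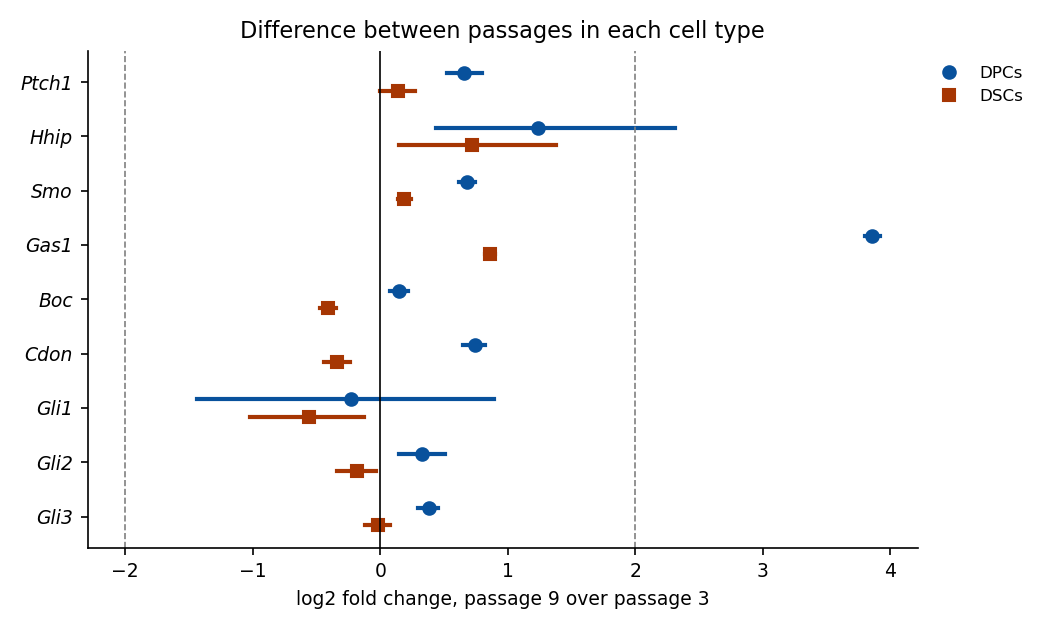
Log2 fold change of each gene between passage 9 and passage 3 in DPCs (circles) and DSCs (squares), with 95% counting intervals as horizontal lines and dashed lines at 4-fold. Only Gas1 in DPCs, at 3.86, lies beyond a dashed line, and the intervals of Boc, Cdon and Gli2 lie on opposite sides of 0 in the 2 cell types.

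The makeup of the coreceptors differed between libraries. Their summed level was 45.2 and 323 CPM per kilobase in low- and high-passage DPCs, and 95.1 and 138 in low- and high-passage DSCs. Gas1 made up 44.4%, 90.2%, 65.3% and 81.8% of it in the same order. Boc, which nearly equalled Gas1 in low-passage DPCs with 41.2% of the sum, made up 6.40% in high-passage DPCs, where its own level was 1.11-fold higher. These are shares of RNA per length, with no measure of protein.

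Gli1, the activator that is itself a direct transcriptional target of the pathway (ENSMUSG00000025407, chr10:127329882-127341974), had 16 and 13 counts in low- and high-passage DPCs against 98 and 79 counts in low- and high-passage DSCs (0.435, 0.362, 2.58 and 1.73 CPM). Both DSC libraries stood above both DPC libraries. Gli1 was 5.42-fold higher in DSCs than in DPCs at passage 3 (log2 2.44, interval 1.80 to 3.43) and 4.32-fold higher at passage 9 (log2 2.11, interval 1.40 to 3.23). It was the only 1 of the 9 genes called at 4-fold between cell types at either passage, beside 2.77% of the genes tested that were called higher in DSCs at passage 3 and 3.91% at passage 9. Both intervals reach below 4-fold. With the deposited FPKM and a pseudocount of 0.1, Gli1 was not called at either passage (log2 1.71 and 1.38), and with a prior count of 10 it was not called at passage 9. Markers of other cell types were also higher in DSCs at both passages. In DPCs and DSCs, the 5 endothelial markers summed to 2.42 and 5.64 CPM at passage 3 and 0.111 and 1.08 at passage 9, and the 6 immune markers to 113 and 164, then 63.7 and 92.2. The 7 Schwann markers summed to 12.6 and 31.7 CPM at passage 3 and 3.65 and 5.29 at passage 9, and the 5 skeletal muscle markers, nearly all from Acta1, to 40.6 and 48.5, then 0.362 and 24.0. Their part in the Gli1 difference was not tested.

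With passage, the Gli1 difference was -0.23 in DPCs on the log2 scale (interval -1.44 to 0.89) and -0.56 in DSCs (interval -1.02 to -0.13, which on halved counts ran from -1.24 to 0.04). A change of Gli1 with passage was therefore not detectable at this depth in DPCs. Gli1 shares 6.55% of its exonic bases with Arhgap9 and Gm47200, both on the opposite strand, and Arhgap9 had 36 and 5 counts in low- and high-passage DPCs and 26 and 0 in low- and high-passage DSCs. Relative to Ptch1, the Gli1 level per kilobase was 0.0430 and 0.0226 in low- and high-passage DPCs and 0.231 and 0.141 in low- and high-passage DSCs, so the 2 targets did not keep a fixed ratio.

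Gli2, the main activator in most tissues (ENSMUSG00000048402, chr1:118834132-119053619), had 481 and 589 counts in low- and high-passage DPCs and 663 and 703 counts in low- and high-passage DSCs (13.1, 16.4, 17.5 and 15.4 CPM). The 2 DSC libraries and high-passage DPCs lay close together. Gli2 was 1.25-fold higher at high passage in DPCs (log2 0.33, interval 0.15 to 0.51) and 1.13-fold lower in DSCs (log2 -0.18, interval -0.34 to -0.03, which included 0 on halved counts). Its deposited FPKM gave a larger difference in DPCs (log2 0.99), and the length implied for Gli2 was 7520 bases in low-passage DPCs and 4560 bases in high-passage DPCs.

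Gli3, which acts mostly as a repressor when ligand is absent (ENSMUSG00000021318, chr13:15463235-15730026), had 2391 and 3026 counts in low- and high-passage DPCs and 1550 and 1838 counts in low- and high-passage DSCs (65.0, 84.3, 40.9 and 40.3 CPM). Both DPC libraries stood above both DSC libraries, the reverse of Gli1. Gli3 was 1.59-fold lower in DSCs at passage 3 (log2 -0.67, interval -0.76 to -0.58) and 2.09-fold lower at passage 9 (log2 -1.06, interval -1.15 to -0.98). With passage it was 1.30-fold higher in DPCs (log2 0.38), and in DSCs the interval of the difference ran from -0.12 to 0.08.

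Per kilobase, Gli3 made up most of the Gli transcripts in every library, with 79.3% and 80.1% in low- and high-passage DPCs and 60.5% and 64.2% in low- and high-passage DSCs. Gli1 made up 1.07% and 0.693% in low- and high-passage DPCs and 7.70% and 5.56% in low- and high-passage DSCs. Gli3 exceeded Gli2 by a ratio of 4.04 and 4.17 in the DPC libraries and of 1.90 and 2.12 in the DSC libraries. By deposited FPKM, whose implied length for Gli2 varied, this ratio was 5.69 and 3.66 in low- and high-passage DPCs and 2.1 and 2.26 in low- and high-passage DSCs.

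**Figure D3:**
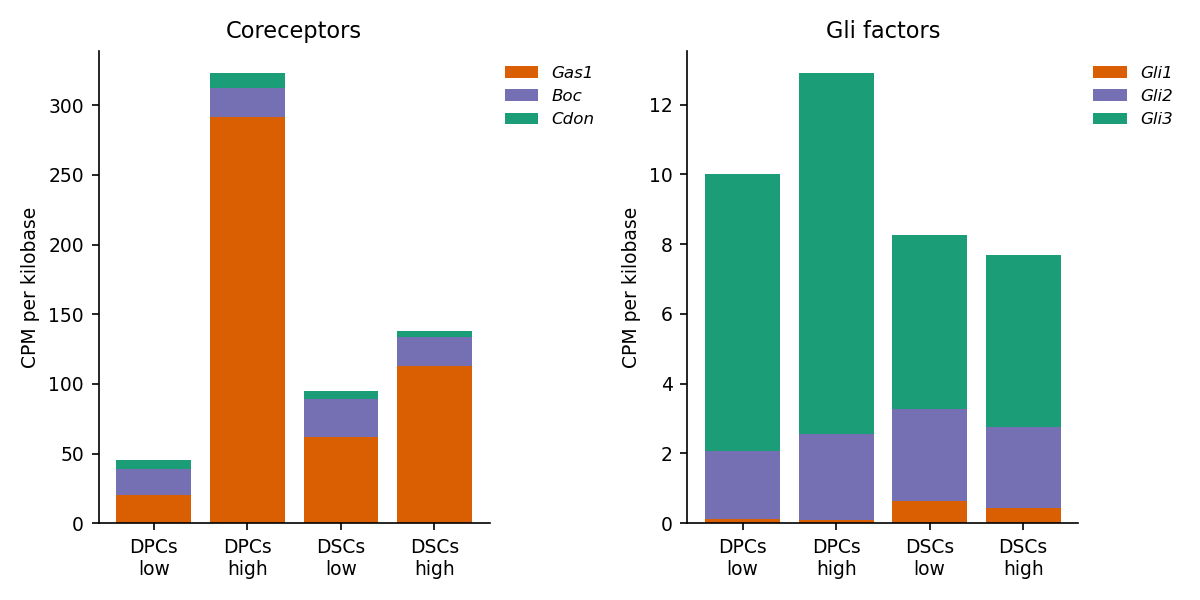
Summed CPM per kilobase of the 3 coreceptors (left) and the 3 Gli factors (right) in each library, as bars from 0 divided by gene, with low for passage 3 and high for passage 9. Gas1 fills 90.2% of the bar of high-passage DPCs, and Gli3 fills 60.5% to 80.1% of every Gli bar.

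Of the set, 8 of the 9 genes had a higher level at high passage in DPCs, beside 51.5% of all genes tested, and the median log2 difference was 0.66, beside 0.03 over all genes. In DSCs 4 of the 9 were higher, beside 50.2% of all genes, and the median was -0.02, beside 0.00 over all genes. At 2-fold, Hhip and Gas1 were past the threshold in DPCs, where 16.1% of the genes tested were higher by that much. In DSCs none of the 9 was past 4-fold, beside 3.82% of the genes tested in either direction, and none was past 2-fold, beside 14.8%. For DSCs over DPCs the median was 0.42 at passage 3, with 7 of 9 above 0, and -0.22 at passage 9, with 2 of 9 above 0. Over all genes these medians were 0.00 and 0.01, with 49.8% and 50.9% above 0. At passage 3 Gli1, Hhip and Gas1 were at least 2-fold higher in DSCs (7.86% of the genes tested), and at passage 9 Gli3, Cdon and Gas1 were at least 2-fold lower (9.11%). The passage and cell type comparisons share libraries, so these counts are not separate lines of evidence. Hhip fell below 2-fold between cell types at passage 3 with a prior count of 10 (log2 0.83) and with FPKM (log2 0.41). It also fell below 2-fold with passage in DPCs with a prior count of 10 (log2 0.96).

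**Figure D4:**
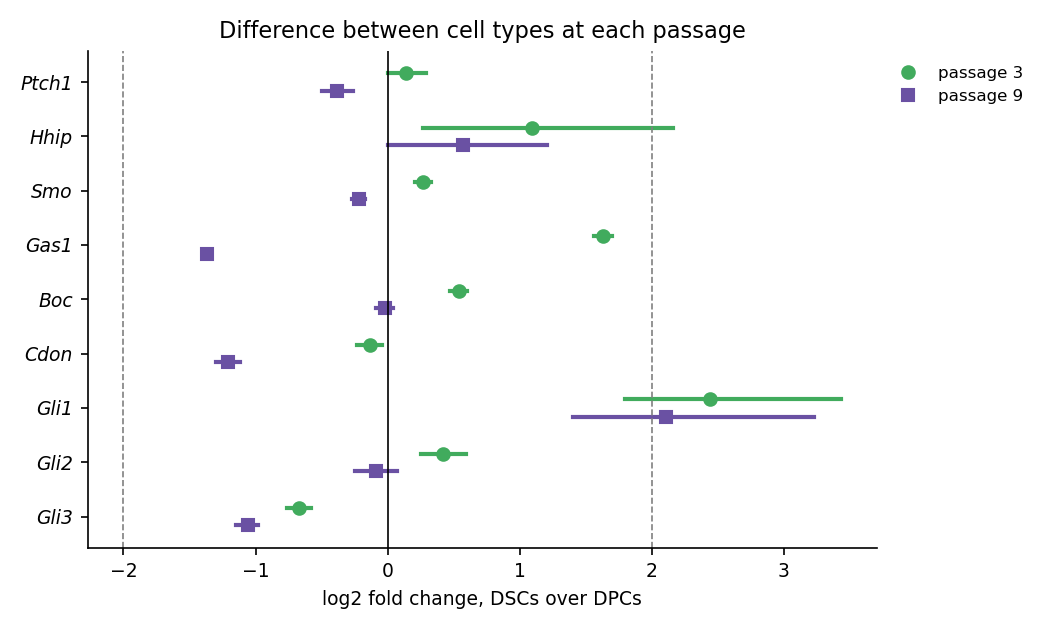
Log2 fold change of each gene in DSCs over DPCs at passage 3 (circles) and passage 9 (squares), with 95% counting intervals as horizontal lines and dashed lines at 4-fold. Gli1 lies beyond 4-fold at both passages (2.44 and 2.11), and Gas1 changes side, from 1.63 to -1.37.

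The only test the design allows is a fit with cell type and passage as additive terms over all 4 libraries, which has 1 residual degree of freedom and takes the other cell type or passage as the replicate. By edgeR's quasi-likelihood test with Benjamini-Hochberg adjustment, 0 of 16734 genes (0%) passed an adjusted p of 0.05 for passage and 0 (0%) for cell type, and 2822 and 1381 genes had p below 0.05 before adjustment. Fitting those terms in DESeq2 gave 964 and 494 calls by its Wald test, none of them among the 9. Gas1 had a passage term of 2.36 (edgeR adjusted p = 0.274; higher at high passage in 2 of 2 cell types). Gli1 had a cell type term of 2.41 (edgeR adjusted p = 0.301) and Gli3 of -0.87 (edgeR adjusted p = 0.382), each in the same direction at 2 of 2 passages.

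The ligands themselves were nearly absent. Shh had 0 counts in all 4 libraries, which allows a level of up to 0.0658 to 0.0836 CPM. At passage 9 Ihh had 8 counts in DPCs and 6 in DSCs, and at passage 3 it had 0 in both. Dhh, a ligand known from Schwann cells, had 14 counts in low-passage DSCs, 3 in high-passage DSCs and 0 in DPCs. The 7 Schwann markers summed to 31.7 CPM in low-passage DSCs, 12.6 CPM in low-passage DPCs, 5.29 CPM in high-passage DSCs and 3.65 CPM in high-passage DPCs, with Sox10, Ngfr and Cdh19 at 0 in both high-passage libraries. Their part in the Dhh counts was not tested. Sufu, which holds Gli proteins in the cytoplasm, had 1481, 1178, 1326 and 1501 counts in DPCs (low, then high passage) and DSCs (likewise), a passage difference of -0.29 and -0.09 on the log2 scale in DPCs and DSCs.

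Of 118 other pathway gene symbols in 5 lists, some of them a second name of the same gene, 115 were found and 107 passed the filter. With passage, 6 were at least 4-fold higher and 3 lower in DPCs (8.41% of those tested, beside 9.94% of all genes), and 5 were higher and 1 lower in DSCs (5.61%, beside 3.82% of all genes). These shares are near the background. Among the transducers, Gpc3, a glypican that competes with Ptch1 for ligand, rose from 664 to 13146 counts in DPCs (log2 4.34, interval 4.23 to 4.46) and from 70 to 678 in DSCs (log2 2.98, interval 2.65 to 3.39). It was the sole gene of 16 tested in that list to be called in either cell type, while the list's medians were 0.04 and 0.10. Among 5 genes tested for ligand release, Scube1, whose relative Scube2 carries ligand off the cell, had 14 and 78 counts in low- and high-passage DPCs (log2 2.37) and 0 and 8 counts in low- and high-passage DSCs. Disp2, a Dispatched family member, had 15 and 18 counts in DPCs and 6 and 53 in DSCs (log2 2.54 in DSCs).

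Of 23 cytoplasmic regulators of Gli and 32 genes of the primary cilium, none was called at 4-fold with passage in either cell type. The cilium list lay slightly above the median of all genes, at 0.42 in DPCs and 0.25 in DSCs. In DPCs 6 of its genes were at least 2-fold higher (18.8%, beside 16.1% of all genes), and in DSCs 2 (6.25%, beside 8.55% of all genes). These shares of genes higher are near the background. At 2-fold 0 cilium genes were lower in either cell type, and the share of all genes lower by that much is not given here. Among 31 mesenchymal genes known to respond to Hedgehog, 4 were called higher and 3 lower in DPCs, and 2 higher and 1 lower in DSCs, with medians of -0.02 and 0.09. The genes called were 22.6% of the list in DPCs, beside 9.94% of all genes, and 9.68% in DSCs, beside 3.82% of all genes. Prdm1, a transcriptional repressor, fell from 630 to 38 counts in DPCs (log2 -3.95), and had 105 and 116 counts in DSCs. Bmp4, a secreted growth factor, fell from 2104 to 137 counts in DPCs (log2 -3.89), and had 5931 and 5724 counts in DSCs. Igfbp3, a binding protein of insulin-like growth factors, rose from 842 to 6947 counts in DPCs (log2 3.08), and had 754 and 385 counts in DSCs.

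**Figure D5:**
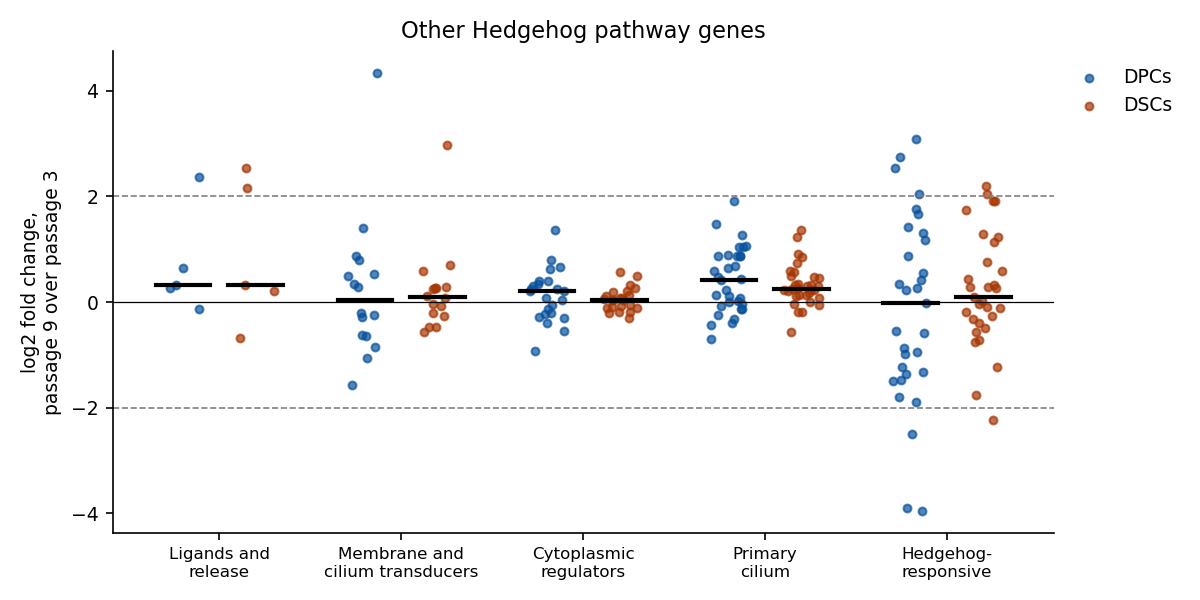
Log2 fold change between passage 9 and passage 3 of the genes tested in 5 Hedgehog pathway lists, 1 point per gene (side-to-side position has no meaning), in DPCs and DSCs, with the list median as a black bar and dashed lines at 4-fold. Points of the regulator and cilium lists stay between the dashed lines, and Gpc3 is the highest point, at 4.34 in DPCs.

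Profiles over the 4 libraries were also compared between each of Gli1 and Ptch1 and all genes tested. The genes most like Gli1 were Rab11fip4 (distance 0.224), Pparg (0.274), the nuclear receptor of fat cell differentiation, and Pappa2 (0.297), a protease of insulin-like growth factor binding proteins. Rab11fip4 had 4 and 4 counts in low- and high-passage DPCs and 38 and 29 in DSCs, and Pparg had 92 and 68 in DPCs and 421 and 334 in DSCs. The genes most like Ptch1 were Clasrp (0.0152), Zfp958 (0.0191) and Wipf2 (0.0305). With 4 points per profile and 16734 genes, close matches are common, and the distances are a description.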

How the data were processed

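The authors deposited 1 table of raw counts per gene for the 4 libraries, with no normalization, and 1 table of FPKM per library, which they normalized for length and depth. The methods describe poly-T selection, a NEBNext Ultra kit and paired-end HiSeq sequencing, whereas the labels name Trizol and a TruSeq kit. The submitters' processing notes name Bowtie 0.12.2 and the builds mm8 and mm9 without a role, while 51633 of the 51826 gene IDs were found in GENCODE M21 (GRCm38), 94.1% of them with the same chromosome, start and end, the 9 genes included.

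The counts were scaled by TMM (edgeR 4.0.16, R 4.3.3) and turned into log2 CPM with a prior count of 2, for genes averaging 10 or more raw counts. A call is a difference of at least 4-fold. The additive fit used edgeR's quasi-likelihood test, and DESeq2 1.42.0 as the alternative. Counts of 0 were given an upper limit of 3 counts. FPKM was used with a pseudocount of 0.1, as an alternative and for the implied lengths. Alternatives covered scaling, prior count, filters, FPKM, halved counts and the threshold.

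Genes named are the 9, the ligands, Sufu and the 3 genes most like Gli1 and Ptch1. In each list the 3 called genes that changed most with passage are also named. Other genes named are markers, overlapping genes, Scube2 as a relative of Scube1, or the genes most like Gas1. The rule also fixed a further gene by name, which is not reported here. The members and lists were chosen with earlier results of these data known. Promoter sequences are from RefSeq, and Gli1 and Boc were not in that table.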

Additional observations from a re-analysis of the deposited data

Results flagged for a closer look

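Boc, Cdon, Gli2, Smo and Gas1 drew attention because the same contrast went in opposite directions in the 2 groups compared, with both counting intervals clear of 0. The difference was not tested, since each group is 1 library. With passage, Cdon was higher in DPCs and lower in DSCs, a difference between the log2 changes of 1.08. The same held for Boc, with a difference of 0.56, and for Gli2, with 0.51, though the Gli2 interval in DSCs included 0 on halved counts. Between cell types, Gas1 was higher in DSCs at passage 3 and higher in DPCs at passage 9, a difference between the log2 values of 3.00, and Smo did the same with 0.49.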

How the results depend on the processing

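No paired analysis was possible because the labels give no replicate numbers and each group is 1 library, so no library could be left out either. At a threshold of 2-fold in place of 4-fold, 2 of the 9 genes were past it with passage in DPCs (1 at 4-fold). Both were higher, beside 16.1% of the genes tested. Between cell types, 3 were past it at passage 3 and 4 at passage 9 (1 each at 4-fold). All 3 were higher in DSCs, beside 7.86% of the genes tested, and 3 of the 4 were lower, beside 9.11%. Of the 107 other pathway genes tested, 31 were past 2-fold in DPCs (9 at 4-fold) and 16 in DSCs (6 at 4-fold). In DSCs 14.8% of all genes tested were past 2-fold in either direction, and the DPC share is not given here. Gli1 was the gene lost between cell types: with FPKM and a pseudocount of 0.1 the count was 0 at both passages, with a prior count of 10 it was 0 at passage 9, and under a filter of 100 on the mean count, which Gli1 does not reach, it was 0 at both. The pathway count in DPCs was 6 with FPKM and 5 with the filter of 100, and in DSCs it was 3 with FPKM, 3 with the filter of 100 and 3 with a prior count of 10. The call of Gas1 with passage in DPCs and the 0 calls in DSCs at 4-fold held under scaling by total counts, DESeq2 size factors or the upper quartile, both prior counts, FPKM, halved counts and both filters. Of 252 values of single genes under alternatives, 231 stayed within the counting interval, and 13 of the 21 that left it were from FPKM and 8 from scaling. The sign changed in 1, Gli3 with passage in DSCs (-0.02, and 0.01 with FPKM). No alternative of the additive fit called any of the 9, while over all genes edgeR called 0 for cell type in the fit as reported, 5 with DESeq2 size factors and 13 with the filter of 100, and 0 for passage in each of these. Gli1 and Hhip, at 13 to 98 counts, are limited by depth.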

Other observations

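Gas1 was also compared with all genes tested by its profile over the 4 libraries, a choice made after its values were seen. The closest were Eps8l2 (distance 0.102), with 169 and 2566 counts in low- and high-passage DPCs and 533 and 1257 in DSCs, then Pkd1l3 (0.162) and Rnf24 (0.196), which had 516 and 7450 counts in DPCs and 1514 and 3094 in DSCs. Of all pairs among the 9 genes, Gas1 and Gli1 were the farthest apart, at 3.74.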
